A study of Mus musculus with 4 samples.

Results

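The genes that carry the insulin and insulin-like growth factor signal from receptor to Akt were examined for FoxO1 binding signal in hypertrophied and normal mouse hearts. The 9 genes were the receptors Insr and Igf1r, the adaptors Irs1 and Irs2, the phosphoinositide 3-kinase subunits Pik3r1 and Pik3ca, the kinases Akt1 and Akt2, and the Akt phosphatase Phlpp1. Every merged region whose list of assigned genes held one of these symbols exactly was taken, whatever its values. This gave 29 of the 16126 regions, spread over 8 of the 9 genes, and no region was listed for Pik3ca.

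Chromatin immunoprecipitation and sequencing (ChIP-seq) with an antibody against FoxO1 (Santa Cruz Biotechnology) was carried out on whole hearts of wild type C57BL/6 male mice aged 12 weeks. In the TAC library the mice had undergone transverse aortic constriction, which loads the left ventricle with pressure, and in the Iso library they had received subcutaneous isoproterenol, a beta-adrenergic agonist, at 3 mg/kg per day. The Veh/Sham library came from mice given both vehicle injections and a sham operation, and every treatment lasted 7 days. Each library came from a single pool of 3 hearts, so no spread between replicates exists and each difference below is a difference between 2 libraries. A whole heart mixes cell types, and a change in the share of a cell type cannot be told apart from a change in binding per cell. Regions were listed for 2 of 8 cardiomyocyte marker genes (Tnni3 and Mb), 5 of 6 endothelial, 2 of 5 fibroblast, 1 of 5 leukocyte and 0 of 3 smooth muscle marker genes. Signal at a marker gene is not its expression, so the tissue label was not checked by these counts.

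Insulin and insulin-like growth factor bind receptor tyrosine kinases, which phosphorylate the Irs adaptors. The adaptors recruit phosphoinositide 3-kinase, its lipid product brings Akt to the membrane, and active Akt phosphorylates FoxO1 and so moves it out of the nucleus. FoxO factors are known to activate Insr and Irs2 transcription in several tissues when insulin is low, and Phlpp1 removes an activating phosphate from Akt.

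Promoter sequences are shown where a region covered them and where they differ in the words that forkhead factors are known to read. Each run is the 250 bases before a RefSeq start site (build GRCm38.p6, the assembly that mm10 names), 5′ to 3′ on the gene's strand, and capitals mark GTAAACA or CAAAACA or their reverse complements TGTTTAC and TGTTTTG. The Akt1 run lies at chr12:112674885-112675134 on the minus strand, inside the region whose TAC signal was highest relative to Veh/Sham among the regions at a member's start. That region was called in TAC only. The Irs2 run lies at chr8:11008930-11009179 and the Irs1 run at chr1:82291440-82291689, both on the minus strand. The Phlpp1 run lies at chr1:106171619-106171868 on the plus strand, inside the region with the highest signal of all 29.
Akt1: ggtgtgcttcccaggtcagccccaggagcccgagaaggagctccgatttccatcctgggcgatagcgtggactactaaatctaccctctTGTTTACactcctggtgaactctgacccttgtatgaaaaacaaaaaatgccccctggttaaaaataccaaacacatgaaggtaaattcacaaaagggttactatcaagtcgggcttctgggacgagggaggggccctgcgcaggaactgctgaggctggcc
Irs2: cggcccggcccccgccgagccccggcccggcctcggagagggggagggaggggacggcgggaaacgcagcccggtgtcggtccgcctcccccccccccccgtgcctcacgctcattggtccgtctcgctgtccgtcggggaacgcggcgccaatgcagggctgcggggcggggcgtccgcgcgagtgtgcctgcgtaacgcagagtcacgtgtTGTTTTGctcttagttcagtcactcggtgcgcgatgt
Irs1: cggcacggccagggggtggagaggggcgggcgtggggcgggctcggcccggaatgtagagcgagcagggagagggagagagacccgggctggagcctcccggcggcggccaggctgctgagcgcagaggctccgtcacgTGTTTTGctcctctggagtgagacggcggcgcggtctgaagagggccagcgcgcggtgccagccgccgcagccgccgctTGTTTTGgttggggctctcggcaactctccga
Phlpp1: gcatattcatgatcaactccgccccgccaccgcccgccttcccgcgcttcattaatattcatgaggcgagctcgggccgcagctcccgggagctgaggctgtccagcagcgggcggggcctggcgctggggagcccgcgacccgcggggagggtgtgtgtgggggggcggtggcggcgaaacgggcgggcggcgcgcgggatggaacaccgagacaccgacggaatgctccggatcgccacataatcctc

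GTAAACA is the core of the forkhead consensus, and CAAAACA is part of the insulin response element of the Igfbp1 promoter. Both were searched on both strands in windows of 300 bases, from 250 before to 50 after a start, of which RefSeq gave 13 for 8 of the members and none for Insr. The forkhead word occurred in 1 of the 13 member windows, the upstream Akt1 start, and in 3.65% of all 32851 promoter windows. The insulin response word occurred in 2 of the 13, those of Irs1 and Irs2, and in 6.28% of all windows. The 2 words were counted separately. The other Akt1 window and the windows of Igf1r, Pik3r1, Pik3ca, Phlpp1 and Akt2 held neither. A match is a description of letters and does not show a binding site.

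The deposited values are a mean signal over each region (mean coverage, called signal here) and a peak depth, the highest coverage in it. The median signal of all regions was 13.96 in TAC, 11 in Iso and 8.71 in Veh/Sham, and the sources used here do not give the scaling between libraries. Each log2 ratio below is that of signal with 1 added to both values, which understates ratios of weak regions. Over all regions the median log2 ratio of TAC to Veh/Sham was 0.59, that of Iso to Veh/Sham 0.30 and that of TAC to Iso 0.29, and ratios relative to these medians are given beside those as deposited. Percentiles place a region among all 16126 regions of its own library and do not depend on the scaling. Intervals of peak depth ratios are exact 95% Clopper-Pearson intervals, cover counting error only, and are no test of a condition. They take each peak depth as a single count, although it is a maximum over a region, so the 95% is nominal. No molecular identifiers mark the fragments, so they may not be independent.

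Most regions lay near a start site. Of the 29 regions, 16 were within 1000 bp of the member's own start, and 18 (62.1%) were within 1000 bp of the start of any gene assigned to them, against 54% of all regions. A CpG island was present in 23 of the 29 (79.3%, against 54.1% of all regions). Another gene was assigned to 15 of the regions as well (51.7%, against 36.8% of all regions). These were all regions of Irs1 (with Gm19537), Irs2 (9530052E02Rik), Akt2 (2310022A10Rik) and Akt1, and the Phlpp1 regions nearest its start (Gm20753). Several starts were split into neighbouring regions with gaps of 21 to 379 bp, and joining regions with gaps up to 1000 bp left 18 groups, so neighbours at a start are not independent. The authors had called an interval in TAC at 8 of the 29 regions (45% of all regions), in Iso at 8 (36%) and in Veh/Sham at 13 (49.1%). All 3 libraries had a call at 5 (22.1% of all regions), and none had at 13 (30.5% of all regions).

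**Figure D1:**
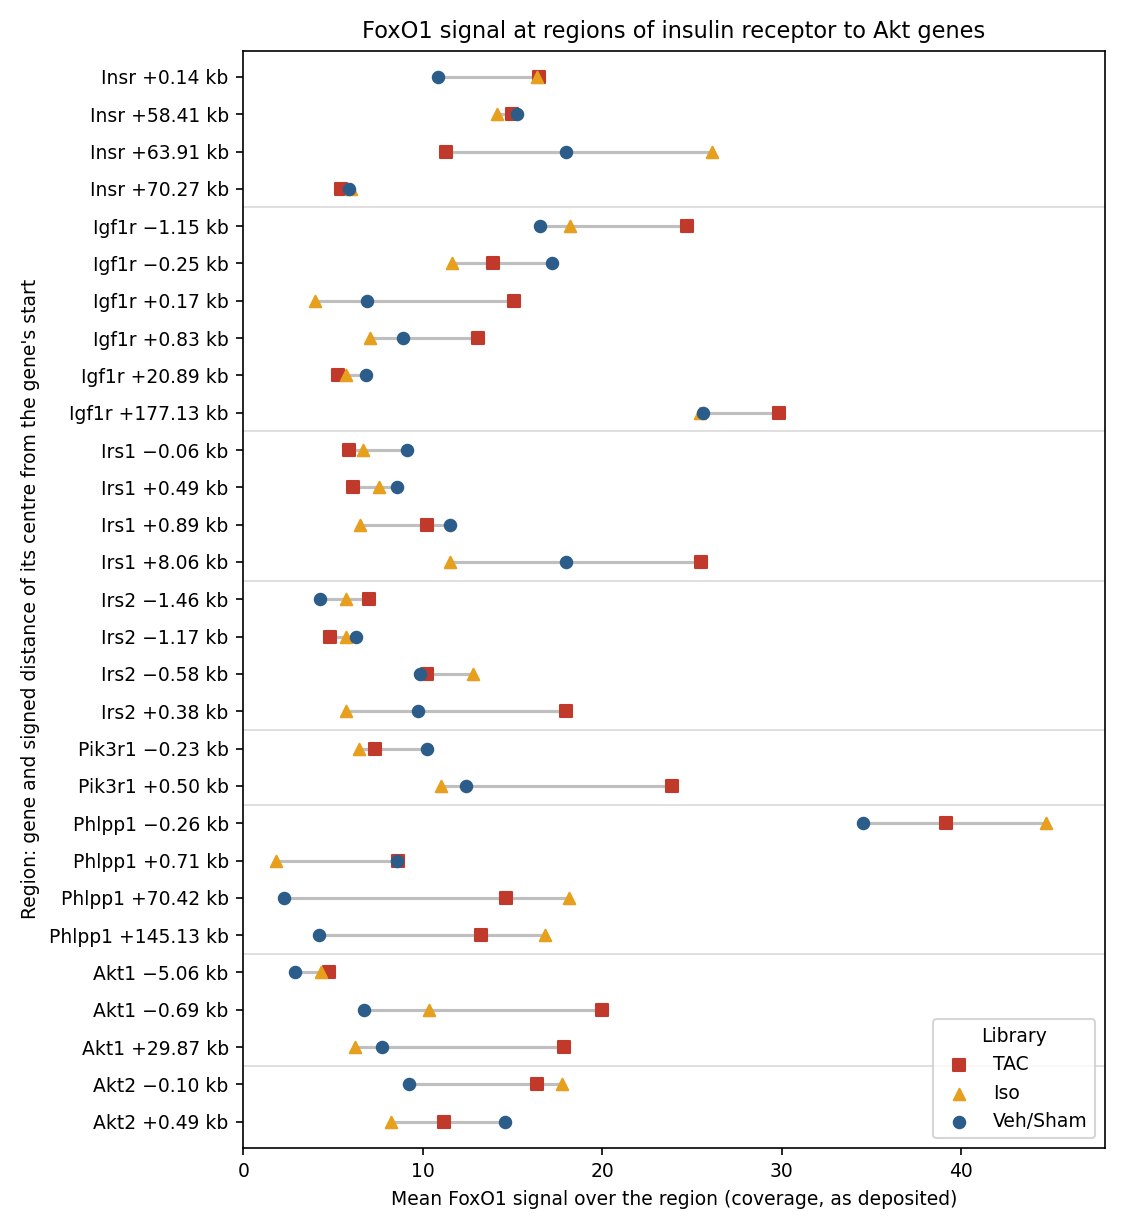
Mean FoxO1 signal (coverage, x axis) at each of the 29 regions (rows, named by gene and by the distance of the region's centre from the gene's start in kb). Squares are TAC, triangles Iso and circles Veh/Sham, 1 library each, and grey bars join the 3 values. The start region of Phlpp1 stands above all others in every library, and its regions 70415 and 145128 bp into the gene have low Veh/Sham values.

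The insulin receptor gene Insr held 4 regions, and its start and its intragenic regions differed. The start region (chromosome 8, 3279089 to 3279864, 141 bp from the start) had a signal of 16.5 in TAC, 16.4 in Iso and 10.9 in Veh/Sham and was called in all 3 libraries. Both treated libraries were above Veh/Sham by nearly the same amount, with log2 ratios of 0.56 for TAC and 0.55 for Iso. With the median over all regions taken off, these were -0.03 and 0.25, so the start region of Insr moved with the bulk of regions. A region 63906 bp inside the gene (3215552 to 3215870) had a signal of 11.3 in TAC, 26.1 in Iso and 18 in Veh/Sham. Its peak depths were 13, 33 and 22. TAC was the lowest library and Iso the highest here, whereas the library medians put TAC highest. The TAC to Iso peak ratio was 0.39 (interval 0.19 to 0.77), below the ratio of all peak depths summed (1.13). In percentiles the region stood at 33.6 in TAC, 97.0 in Iso and 94.8 in Veh/Sham. The neighbouring intragenic region at 58410 bp read 15.0, 14.1 and 15.2 in TAC, Iso and Veh/Sham, and the one at 70270 bp read 5.46, 6.00 and 5.91. Those regions had nearly equal signal in all libraries, and thus lay below the median ratio of all regions in both treated libraries.

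Igf1r, the receptor of insulin-like growth factor 1, held 6 regions, the most of any member. Its strongest lay 177131 bp inside the gene (chromosome 7, 68128550 to 68130227, 1677 bp long and without a CpG island), with a signal of 29.8 in TAC, 25.4 in Iso and 25.6 in Veh/Sham. The peak depths of 59, 63 and 60 were nearly equal. The TAC to Veh/Sham peak ratio of 0.98 had an interval of 0.68 to 1.43, and the Iso to Veh/Sham ratio of 1.05 one of 0.73 to 1.52. This region was called in all 3 libraries and stood between percentiles 96.6 and 98.3 in each. Around the start, 4 regions lay within 1149 bp, and their patterns differed. The region 174 bp inside the gene read 15.1 in TAC, 4 in Iso and 6.90 in Veh/Sham, and the region at 833 bp read 13.1, 7.08 and 8.92. TAC was highest and Iso lowest at both. The region 248 bp upstream read 13.9, 11.6 and 17.2, with Veh/Sham highest, and the one 1149 bp upstream read 24.7, 18.2 and 16.5. The TAC to Iso peak ratio at 174 bp was 3.33 (20 against 6, interval 1.29 to 10.1), and the authors called no interval there in any of the 3 libraries. The weakest Igf1r region, at 20895 bp, read 5.29, 5.71 and 6.86.

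Irs1 encodes an insulin receptor substrate, and the mean signal of its start regions was lower in both treated libraries than in Veh/Sham, though their peak depths were not all lower. These 3 regions read 5.89, 6.67 and 9.11 at 56 bp upstream, 6.11, 7.56 and 8.56 at 491 bp and 10.2, 6.50 and 11.5 at 888 bp, in TAC, Iso and Veh/Sham. Veh/Sham was the highest library at all 3, although it had the lowest median over all regions. In percentiles, the region at the start itself, which covers 255 of the 300 bases of the Irs1 promoter window with its 2 insulin response words, stood at 7.0 in TAC, 19.4 in Iso and 53.4 in Veh/Sham. Its peak depths of 8, 9 and 12 are small, and the TAC to Veh/Sham ratio of 0.67 has an interval of 0.24 to 1.77. The peak depths in TAC, Iso and Veh/Sham were 8, 13 and 13 at 491 bp, with Iso equal to Veh/Sham, and 14, 10 and 14 at 888 bp, with TAC equal to Veh/Sham. Every counting interval at these 3 regions held 1. The strongest Irs1 region lay 8058 bp inside the gene (chromosome 1, 82283163 to 82283600) and read 25.5 in TAC, 11.5 in Iso and 18 in Veh/Sham. Its peak depths were 40, 15 and 25, giving a TAC to Iso ratio of 2.67 (interval 1.44 to 5.20) and an Iso to Veh/Sham ratio of 0.60 (interval 0.29 to 1.18). TAC was thus the highest library at this region and the Iso library the lowest, in contrast to the start regions, where TAC was not the highest.

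Irs2, the adaptor whose gene is a known FoxO target in liver, had 4 regions, each overlapping a CpG island, over a span of 2250 bp around its start. The region 383 bp inside the gene (chromosome 8, 11007742 to 11008352) read 18 in TAC, 5.70 in Iso and 9.75 in Veh/Sham, with peak depths of 31, 11 and 13. The TAC library stood above the other two and Iso below them. The TAC to Veh/Sham peak ratio was 2.38 (interval 1.21 to 4.97), and this interval holds 1.43, the ratio of all peak depths summed. The TAC to Iso ratio was 2.82 (interval 1.38 to 6.21), while the Iso to Veh/Sham ratio of 0.85 had an interval of 0.34 to 2.05. With the median over all regions taken off, the log2 ratios were 0.23 (TAC to Veh/Sham), -0.98 (Iso to Veh/Sham) and 1.21 (TAC to Iso). In percentiles this region stood at 74.1 in TAC, 13.6 in Iso and 59.3 in Veh/Sham. The adjacent region, 583 bp upstream of the start used by the table, read 10.2, 12.8 and 9.83 in TAC, Iso and Veh/Sham, with peak depths of 20, 20 and 16. RefSeq places the Irs2 start 499 bp further upstream, so this adjacent region, and not the one inside the gene, holds the whole Irs2 promoter window shown above. The counting intervals of the TAC to Iso ratio of the 2 regions overlapped (0.51 to 1.96 at the upstream region). The other 2 upstream regions were weak, with signals from 4.29 to 7.00.

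**Figure D2:**
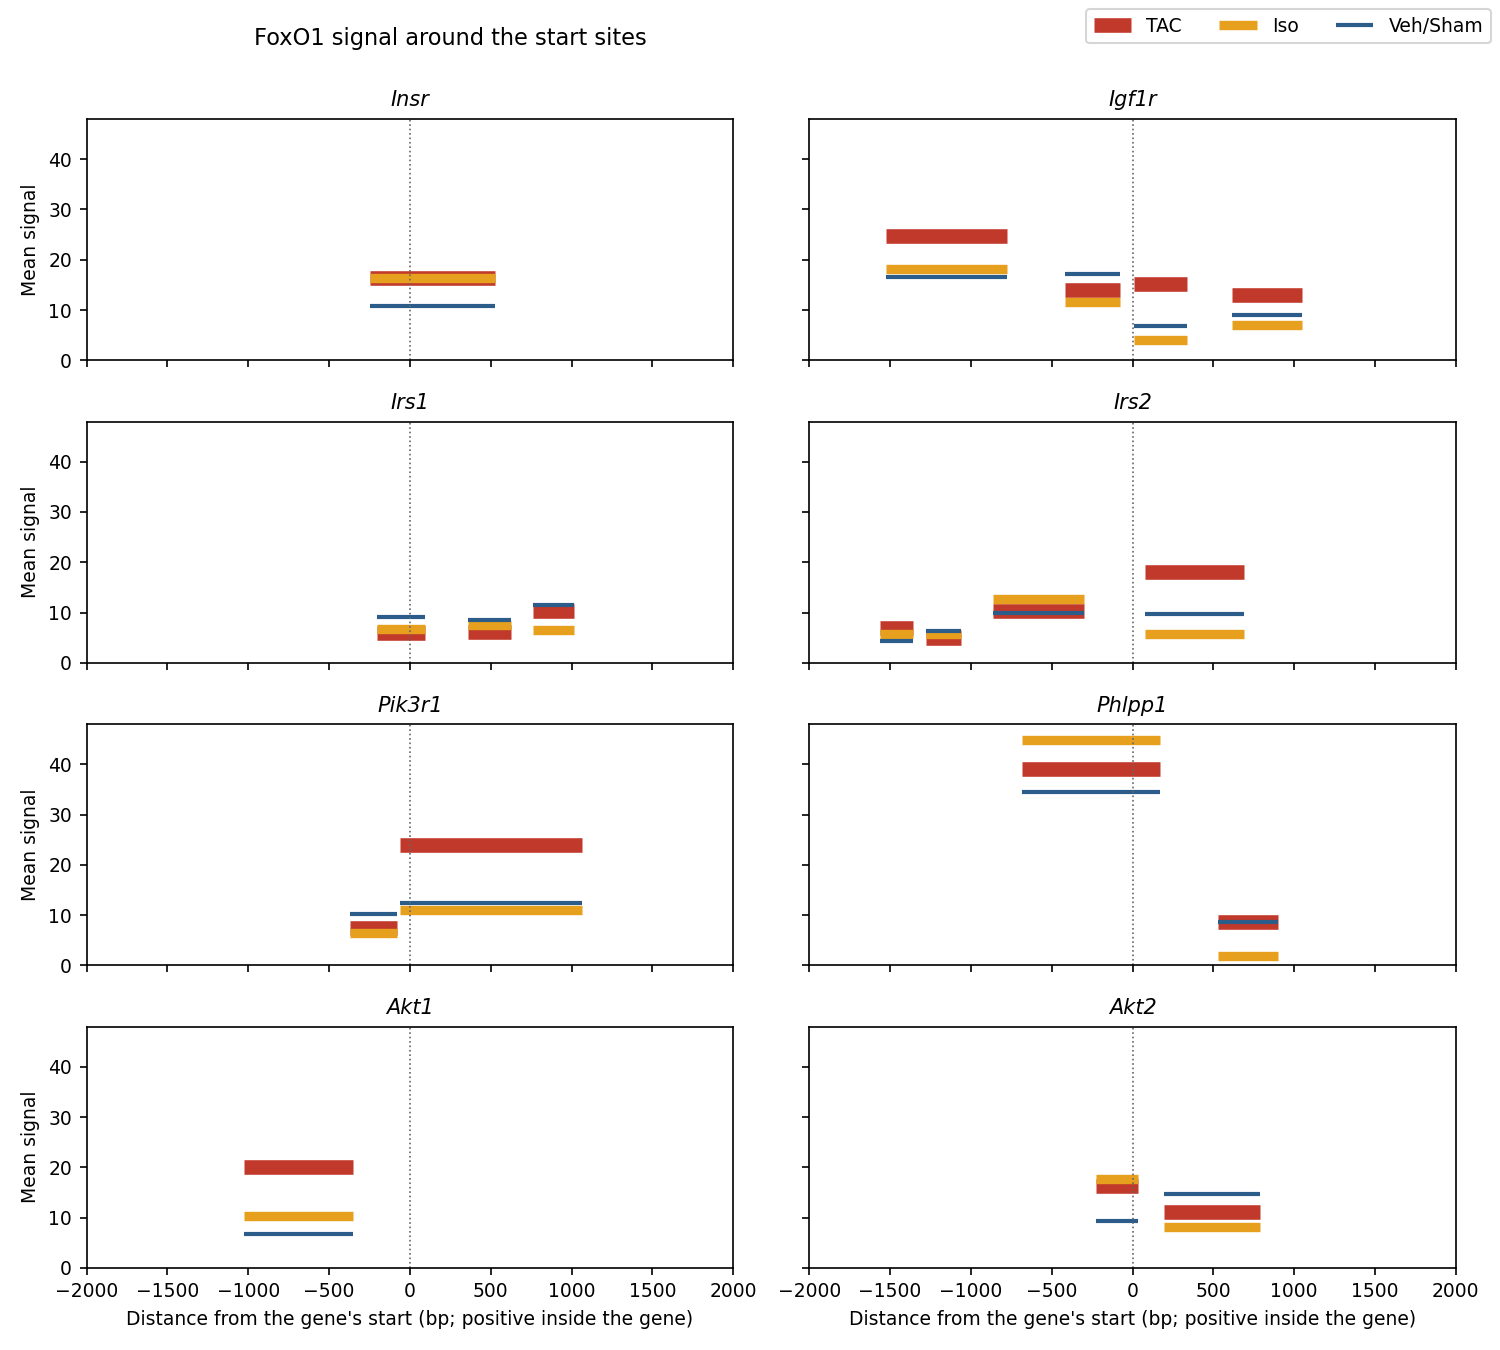
Mean FoxO1 signal (coverage, y axis) of regions around the start of each gene (x axis, distance from the start in bp, positive inside the gene). Each bar spans 1 region, and line width and colour mark the library: thick red TAC, medium orange Iso, thin blue Veh/Sham. TAC lies above the other libraries just inside Igf1r, Irs2 and Pik3r1 and just upstream of Akt1, and Veh/Sham lies highest at the 3 start regions of Irs1.

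Pik3r1, which encodes the main regulatory subunit of phosphoinositide 3-kinase, had 2 regions 21 bp apart at its start. The larger (chromosome 13, 101767151 to 101768277, centre 503 bp inside the gene) read 23.9 in TAC, 11 in Iso and 12.4 in Veh/Sham and was called in all 3 libraries. TAC stood above both others, with peak depths of 39, 24 and 20. The TAC to Veh/Sham peak ratio was 1.95 (interval 1.11 to 3.53), and this interval holds 1.43, the ratio of all peak depths summed. The log2 ratio of signal was 0.89, or 0.30 after taking off the median over all regions. The smaller, centred 226 bp upstream, read 7.33, 6.44 and 10.2 with peak depths of 12, 13 and 12. Its signal was lower in both treated libraries than in Veh/Sham while its peak depth was equal in TAC and higher by 1 in Iso. Pik3ca, which encodes the catalytic subunit alpha, had no region to set beside these.

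Akt1 and Akt2 encode the kinases at the end of this chain, Akt2 being the form most tied to glucose uptake. The Akt1 region at chromosome 12, 112674628 to 112675305, lay 690 bp upstream of the start used by the table and covers the upstream RefSeq start (112674884) with the forkhead word shown above. It read 20.0 in TAC, 10.3 in Iso and 6.71 in Veh/Sham, so the 3 libraries kept the order of their overall medians. Its peak depths of 24, 14 and 10 gave a TAC to Veh/Sham ratio of 2.40 (interval 1.11 to 5.62), which holds 1.43, the ratio of all peak depths summed. The log2 ratio of signal for TAC against Veh/Sham was 1.44, or 0.86 relative to the median. An interval was called there in TAC only, the library where its signal was highest. Its high TAC to Veh/Sham ratio is therefore no evidence of a difference from other regions. All 3 regions listed for Akt1 are shared with neighbouring genes, this one with Zbtb42, and all regions of Irs1, Irs2 and Akt2 are shared too. The region 29873 bp from the Akt1 start lies downstream of the gene, beyond its end, and is also assigned to Siva1 and Adssl1. It read 17.9 in TAC, 6.25 in Iso and 7.75 in Veh/Sham, with no interval called in any of the 3 libraries. The region 5056 bp upstream is also assigned to Zbtb42 and read 4.78, 4.33 and 2.89. At Akt2 (chromosome 7) the region 97 bp upstream of the start read 16.4 in TAC, 17.8 in Iso and 9.25 in Veh/Sham, with both treated libraries above Veh/Sham. It had no interval called in any of the 3 libraries. The region 491 bp inside the gene read 11.2, 8.22 and 14.6, with Veh/Sham highest, and was called in Veh/Sham only. The intervals of the Iso to Veh/Sham peak ratios of these 2 regions overlapped (0.89 to 4.78 upstream and 0.34 to 1.55 inside).

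Phlpp1 had the strongest FoxO1 region of the group and the largest ratios. Its start region (chromosome 1, 106171185 to 106172042, 256 bp upstream) read 39.1 in TAC, 44.7 in Iso and 34.6 in Veh/Sham and stood at percentile 99.5 in TAC, 99.8 in Iso and 99.5 in Veh/Sham. Peak depths of 93, 110 and 82 gave an Iso to Veh/Sham ratio of 1.34 (interval 0.999 to 1.81) and a TAC to Veh/Sham ratio of 1.13 (interval 0.83 to 1.55). A region 70415 bp inside the gene (106242156 to 106242412) read 14.6, 18.1 and 2.25 in TAC, Iso and Veh/Sham. Another at 145128 bp (106316750 to 106317244) read 13.3, 16.8 and 4.20. Neither has a CpG island, and at both the treated libraries were several times above Veh/Sham. The peak depths at 70415 bp were 19, 23 and 3, with a TAC to Veh/Sham ratio of 6.33 (interval 1.86 to 33.4) and an Iso to Veh/Sham ratio of 7.67 (interval 2.32 to 39.9). The Veh/Sham signal there stood at percentile 2.6 of its library. At 145128 bp the depths were 16, 19 and 9, and both intervals held 1 (0.74 to 4.56 for TAC and 0.91 to 5.30 for Iso). The authors called an interval at each of these 2 regions in Iso only. They were thus called only in the library where their signal was highest. Their high Iso to Veh/Sham ratios are therefore no evidence of a difference from the start region. The remaining region, 713 bp inside the gene, read 8.64 in TAC, 1.82 in Iso and 8.55 in Veh/Sham, on peak depths of 13, 3 and 11. It had no interval called in any of the 3 libraries.

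**Figure D3:**
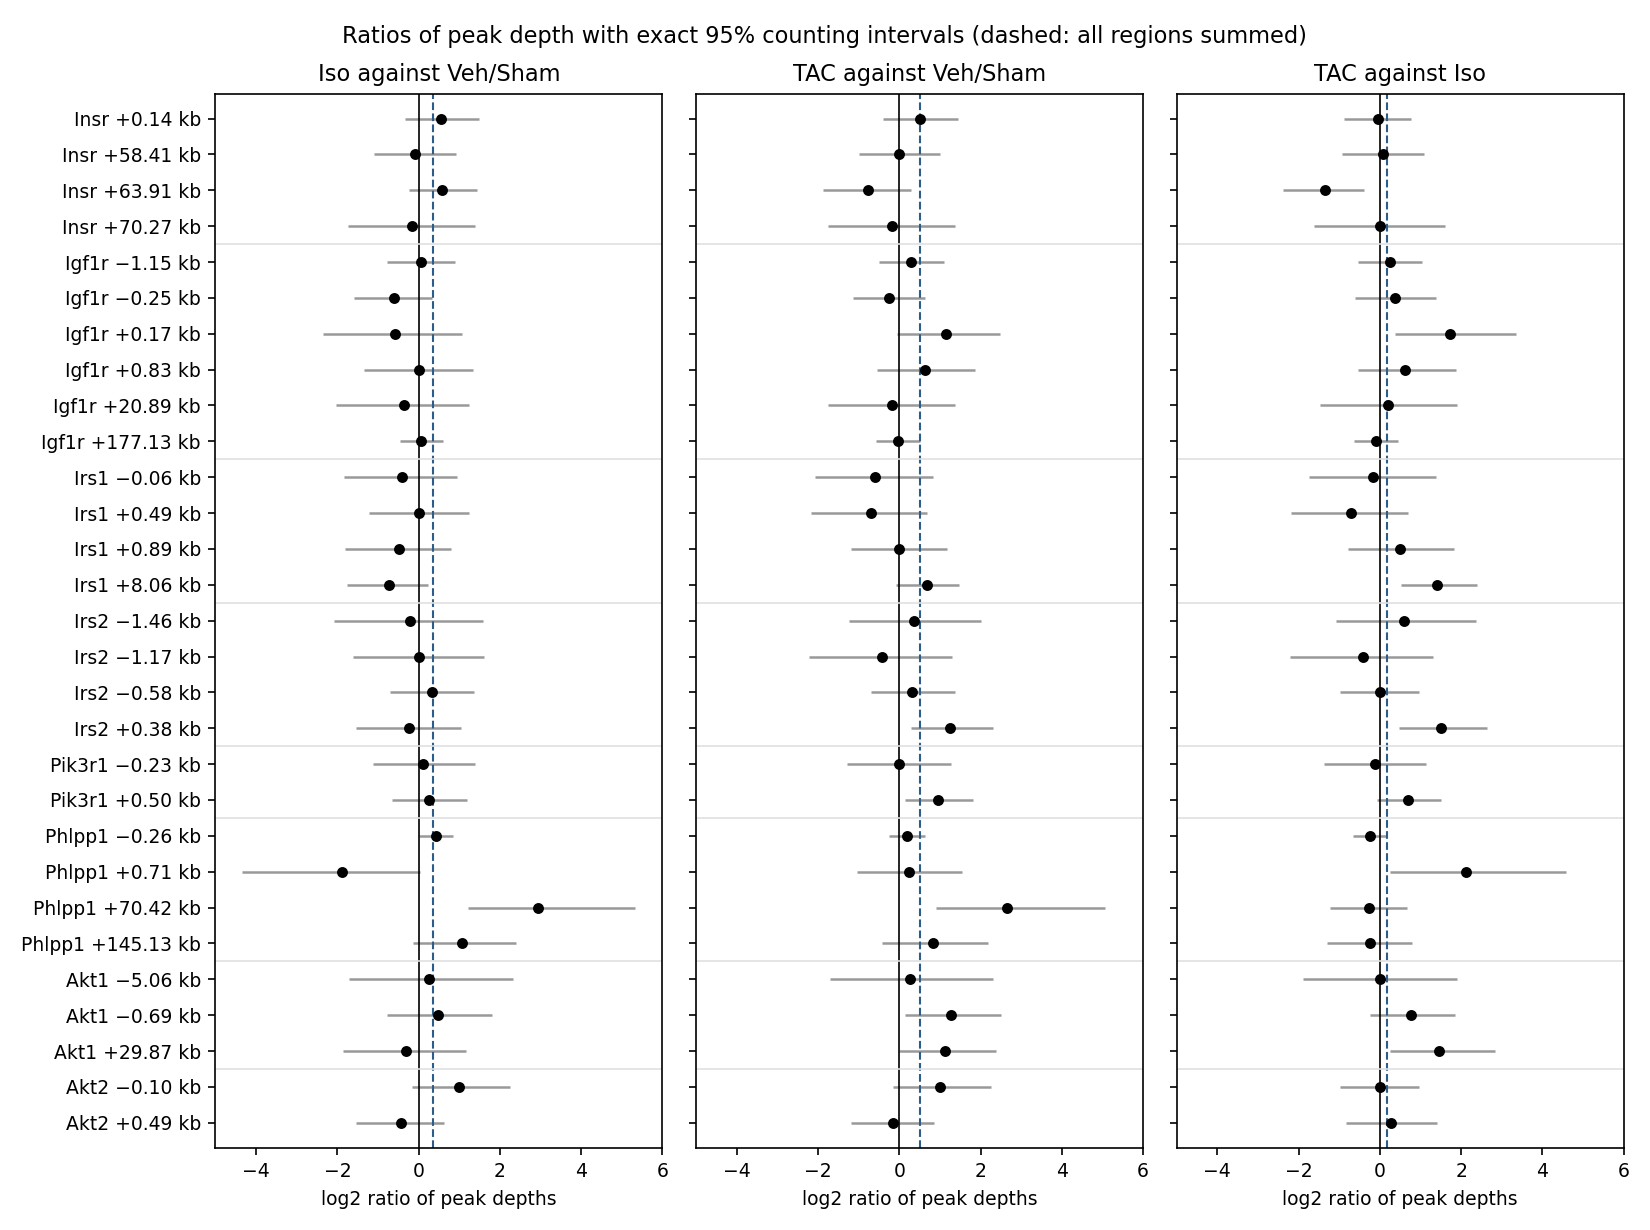
Log2 ratio of peak depths at each of the 29 regions (rows) for Iso against Veh/Sham, TAC against Veh/Sham and TAC against Iso (x axes), with exact 95% counting intervals as grey bars. The solid line marks equal depth and the dashed line the ratio of all peak depths summed. Most intervals cross the dashed line, and the Phlpp1 region 70415 bp inside the gene lies above it in both comparisons with Veh/Sham.

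The members were also ordered in each library by 1 fixed region per gene, the one whose signal averaged over the 3 libraries was highest, which need not be the strongest in each library. Phlpp1 led in each (39.1 in TAC, 44.7 in Iso and 34.6 in Veh/Sham). In TAC the order after Phlpp1 was Igf1r (29.8), Irs1 (25.5), Pik3r1 (23.9), Akt1 (20.0), Irs2 (18), Akt2 (16.4) and Insr (11.3), and of the neighbours in that order only Phlpp1 and Igf1r had a peak depth ratio whose counting interval left out 1. In Iso it was Insr (26.1), Igf1r (25.4), Akt2 (17.8), Irs1 (11.5), Pik3r1 (11), Akt1 (10.3) and Irs2 (5.70), and each interval from Phlpp1 down to Akt2 left out 1, although Insr had the lower peak depth (33) and Igf1r the higher (63). In Veh/Sham Phlpp1 was followed by Igf1r (25.6), Insr and Irs1 (18 each), Pik3r1 (12.4), Irs2 (9.75), Akt2 (9.25) and Akt1 (6.71). Here the interval left out 1 for Igf1r and Insr alone. These orders depend on fixing the region. Insr, last in TAC by its region at 63906 bp, had 16.5 at its start region there, just above Akt2. Irs2, last in Iso, had 12.8 at its region 583 bp upstream, and Akt2 had 14.6 in Veh/Sham at its region 491 bp inside the gene, above Pik3r1.

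For Iso against Veh/Sham the 29 regions had a median log2 ratio of -0.12 (interval by order statistics, -0.40 to 0.35), against 0.30 over all regions, with 12 regions above 0 and 17 below. This interval and those of the other medians treat the 29 regions as independent, which neighbouring regions are not, and with 1 library per condition they describe the spread among regions only. By the 1.5-fold rule 3 regions were higher (background 31.8% of all regions) and 7 lower (background 7.99%), which are 10.3% and 24.1% of the 29. The 3 higher were the Phlpp1 regions at 70415 and 145128 bp (called in Iso only) and the Akt2 region at 97 bp upstream (called in no library). The 7 lower were at Irs1 (888 and 8058 bp), Irs2 (383 bp), Igf1r (174 bp), Pik3r1 (226 bp upstream), Akt2 (491 bp) and Phlpp1 (713 bp). Of these, Irs1 at 888 bp, Pik3r1 and Akt2 were called in Veh/Sham only, the library where their signal was highest. Their low ratios are therefore no evidence of a difference from other regions. Irs1 at 8058 bp and Irs2 were called in TAC and Veh/Sham, and the Igf1r and Phlpp1 regions in no library. With the median over all regions taken off, 2 were higher (background 17.8%) and 10 lower (background 16.1%). All 10 lay at CpG islands, where the median relative ratio was -0.46 for the 23 member regions and -0.15 for all 8727 regions with an island. The counting interval lay above the ratio of all peak depths summed (1.27) at 1 region (background 3.9%) and below it at 3 (background 3.81%).

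TAC against Veh/Sham gave a median log2 ratio of 0.21 over the 29 regions (interval -0.15 to 0.60), against 0.59 over all regions. Without the 25% of regions with the lowest signal it was 0.53 over the 20 left, against 0.60 over all regions left. Among the 5 called in all 3 libraries it was 0.55, against 0.52, so most or all of that gap was absent under these filters. The gap remained among the 14 regions called in TAC or Veh/Sham (0.19, against 0.53 over all such regions) and with peak depths (0.22, against 0.55). By the 1.5-fold rule 9 regions were higher (background 50.2%) and 1, the Insr region at 63906 bp, lower (background 4.18%). The 9 higher comprised Phlpp1 at 70415 and 145128 bp (2.27 and 1.46), Akt1 at 690 bp upstream (1.44) and at 29873 bp, downstream of the gene (1.11), Igf1r at 174 bp (1.03), Pik3r1 at 503 bp (0.89), Irs2 at 383 bp (0.82) and 1461 bp upstream (0.60), and Akt2 at 97 bp upstream (0.76). With that median taken off, 3 were higher (background 18.4%), those of Phlpp1 and the Akt1 start, and 11 lower (background 17%). The higher Phlpp1 regions were called in Iso only and the Akt1 region in TAC only. The 11 included all 3 start regions of Irs1 and 3 of the 4 Insr regions. The counting interval lay above 1.43 at 1 region (background 4.66%) and below it at 1 (background 4.53%).

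TAC against Iso gave a median log2 ratio of 0.16 (interval -0.12 to 0.58), against 0.29 over all regions, and 0.32 against 0.28 without the 25% lowest regions. In this comparison 9 regions were at least 1.5-fold higher (background 31.4%) and 1 was lower (background 8.85%), again the Insr region at 63906 bp (-1.14). The highest were Phlpp1 at 713 bp (1.77), Igf1r at 174 bp (1.69), Irs2 at 383 bp (1.5), Akt1 at 29873 bp, downstream of the gene (1.38), Irs1 at 8058 bp (1.08) and Pik3r1 at 503 bp (1.05). Relative to the median, 7 were higher (background 17%) and 4 lower (background 17.4%). Counting intervals lay above the ratio of all peak depths summed (1.13) at 5 regions (background 5.79%), at Phlpp1, Igf1r, Irs2, Akt1 and Irs1. Of these, the Phlpp1 (713 bp), Igf1r (174 bp) and Akt1 (29873 bp) regions had no interval called in any of the 3 libraries. Counting intervals lay below that ratio at 2 regions (background 6.33%), the Insr region and the Phlpp1 start. The 3 comparisons share libraries in pairs, so a region named in more than 1 of them rests partly on the same value.

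**Figure D4:**
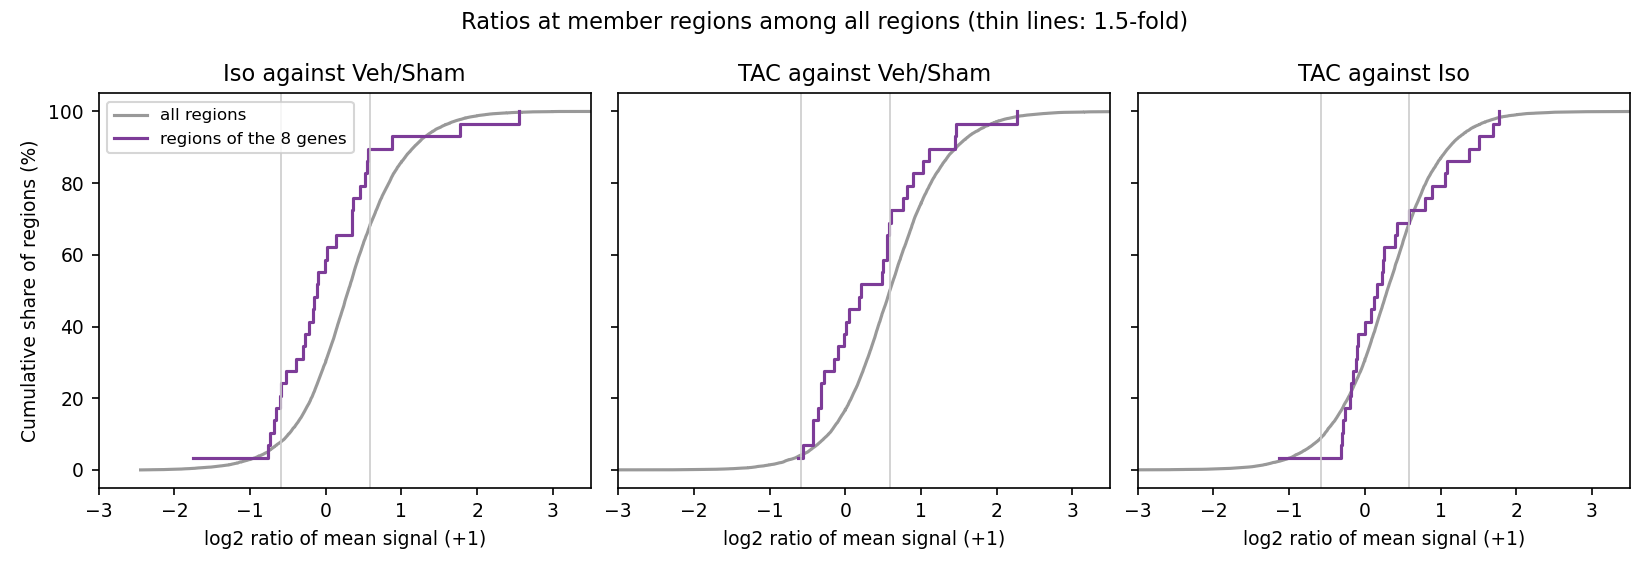
Cumulative share of regions (y axis, percent) by log2 ratio of signal with 1 added (x axis) for the 3 comparisons. The purple steps are the 29 regions of the 8 genes, the grey curves all 16126 regions, and thin vertical lines mark 1.5-fold. The purple steps lie mostly left of the grey curve against Veh/Sham, with medians of -0.12 against 0.30 for Iso and 0.21 against 0.59 for TAC.

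Other genes of the pathway were described by their strongest region. Of 62 further genes of insulin, growth factor and phosphoinositide signalling, 50 had a region. Their median log2 ratio was 0.30 for Iso against Veh/Sham, with 9 of the 50 at least 1.5-fold higher (background 31.8%) and 2 lower (background 7.99%). For TAC against Veh/Sham it was 0.53, with 23 higher (background 50.2%) and 0 lower (background 4.18%), so the share that was higher was near the background. For TAC against Iso it was 0.33, with 14 higher (background 31.4%) and 0 lower (background 8.85%), the first again near the background. With the median over all regions taken off, 6 were higher (background 17.8%) and 4 lower (background 16.1%) in Iso against Veh/Sham. The counts were 7 (background 18.4%) and 3 (background 17%) in TAC against Veh/Sham, and 3 (background 17%) and 3 (background 17.4%) in TAC against Iso. These backgrounds are over all regions, whereas the list has 1 strongest region per gene. The strongest regions of the 8 members had medians of 0.18, 0.62 and 0.56.

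Among the further genes the highest ratios in Iso against Veh/Sham were at Igfbp5, a binding protein of insulin-like growth factors, Pik3r5 and Rptor. At Igfbp5 the values were 5.17 in TAC, 4.5 in Iso and a listed 0 in Veh/Sham, on peak depths of 6, 6 and 0. This weak region had no interval called in any of the libraries used. The region of Pik3r5, a regulatory subunit for the G protein-coupled form of the kinase, read 20.7 in TAC, 24.6 in Iso and 5.86 in Veh/Sham. That of Rptor, the raptor subunit of mTOR complex 1, read 15.1, 16.2 and 5.18. Ptpn1, a phosphatase that dephosphorylates the insulin receptor, stood with Igfbp5 and Pik3r5 in TAC against Veh/Sham and read 21.4 in TAC, 15.0 in Iso and 6.73 in Veh/Sham. At these 4 genes, which were picked for high ratios to Veh/Sham in Iso or TAC, both treated libraries lay above Veh/Sham.

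The lowest ratios in Iso were at Igfbp4 (13.0 in TAC, 3.19 in Iso and 10.8 in Veh/Sham), Rictor, the rictor subunit of mTOR complex 2 (9.50, 5.80 and 9.83), and Foxo4 (15.5, 7.93 and 10.6). Iso was the lowest library at all 3, which were picked for a low Iso to Veh/Sham ratio. Igfbp4 and Foxo4 also headed TAC against Iso together with Pik3cb, the catalytic subunit beta (20.4, 9.13 and 7.13). Foxo3 (21.2, 28.7 and 24.0), Pik3r4 (7.00, 10.3 and 7.43) and Rictor were lowest in TAC against Veh/Sham, and Pik3r4, Foxo3 and Gsk3a, a kinase inhibited by Akt (24.7, 31.6 and 23.7), in TAC against Iso. No log2 ratio of these lowest genes in TAC against Veh/Sham reached 1.5-fold. The regions of Rictor and Pik3r4 had no interval called in any of the 3 libraries.

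For each member the gene with the most similar signal over the 3 libraries was sought among all other genes, by the Euclidean distance of log2 signal with 1 added between strongest regions. The nearest to Insr was Mrps22 (distance 0.07), with 11.5 in TAC, 25.1 in Iso and 18.5 in Veh/Sham. Irs2 was nearest to Zfp326 (0.12; 19.2, 6.06 and 9.81), Irs1 to Tapbp (0.16), Phlpp1 to M6pr (0.11), Akt1 to Fam20b (0.06), Akt2 to Ankrd65 (0.03), Pik3r1 to Map3k12 (0.04) and Igf1r to Fbxo9 (0.02). With 3 libraries, these matches are a description of 3 values each.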

How the data were processed

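FoxO1 ChIP-seq of whole hearts was measured in 3 libraries, 1 per condition, and an input library was not used here. Per the submitters' processing notes, BWA, SICER and mm10 were used; versions and roles are not stated there. The authors deposited, per merged region, a mean signal (coverage), a whole-number peak signal taken as depth, whether an interval was called (coded 0 or 1), the region's length, CpG islands, genes and distances to starts. The 6 columns of values for 2 further libraries, whose names fit no sample here, were left out. Regions could be listed for an interval in those libraries alone.

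All ratios were computed over 16126 regions with a pseudocount of 1, without p-values. A 1.5-fold rule of size was used. Peak depths summed to 351237 in TAC, 312197 in Iso and 245382 in Veh/Sham. Sequences come from RefSeq (GRCm38.p6), in which all 9 symbols matched. The members and lists were chosen with earlier results of these data known, Phlpp1, Irs2 and Insr among them. All regions of members were named, and of the other pathway genes the 3 highest and 3 lowest per comparison, each by its strongest region (mean over the 3 libraries). Functions were tested on simulated single counts, not on simulated maxima of coverage. Software was scipy 1.17.1, pandas 2.3.3, numpy 2.4.6 and matplotlib 3.10.9 under Python 3.11.15.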

Additional observations from a re-analysis of the deposited data

How the results depend on the processing

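The median log2 ratio of the 29 regions stayed inside its order-statistic interval, which treats neighbouring regions as independent, under peak depths, pseudocounts of 5 and 0.1, called regions and the filter on low signal. For Iso against Veh/Sham it nevertheless ranged from -0.14 to 0.13, so its sign differed between settings. In each of these settings it lay below the median of all regions. The values were -0.14 against 0.33 with a pseudocount of 0.1, and 0.13 against 0.31 among the 5 regions called in all 3 libraries. For TAC against Veh/Sham it was 0.53 without the 25% lowest regions (all regions 0.60) and 0.55 with calls in all 3 libraries (all regions 0.52). With calls in either library it was 0.19 (all regions 0.53), and with peak depths 0.22 (all regions 0.55). For TAC against Iso it was 0.32 without the lowest (all regions 0.28). Recentring on the median of all regions moved it, by construction, to -0.37 (TAC to Veh/Sham), -0.42 (Iso to Veh/Sham) and -0.13 (TAC to Iso). The counts rest on few regions and moved more. Backgrounds given here are shares of all regions under the same setting. For Iso against Veh/Sham, 3 regions were lower with peak depths (background 7.88%). With a pseudocount of 5, 1 was lower (background 3.83%), and by a 2-fold rule 1 was (background 2.96%). With a pseudocount of 0.1, 5 were higher (background 34.7%). Among the 5 regions called in all 3 libraries, 0 were higher (background 22.4%) and 0 lower (background 0.34%). For TAC against Veh/Sham, the higher count was 3 after recentring (background 18.4%) and 5 by a 2-fold rule (background 25.8%). It was 3 among the 14 regions called in either library (background 46.5%) and 1 among the 5 called in all 3 (background 42.7%). The lower count was 2 with peak depths (background 4.07%), 2 with a pseudocount of 0.1 (background 4.73%) and 11 after recentring (background 17%). It was 0 with a pseudocount of 5 (background 2.03%), a 2-fold rule (background 1.41%) or calls in all 3 (background 0.17%). For TAC against Iso, the higher count was 4 among the 11 regions called in either library (background 32.8%). It was 1 among the 5 called in all 3 (background 13.2%). The lower count was 2 with peak depths (background 10.6%), 4 after recentring (background 17.4%) and 0 with calls in all 3 (background 1.77%). The count of regions near the start of any gene assigned to them went to 22 of 29 with 5000 bp (75.9%, against 64.8% of all regions).

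With peak depths the Pik3r1 region 226 bp upstream turned to 0.11 for Iso against Veh/Sham. The strongest region was also replaced by the one whose centre is nearest the start. For TAC against Veh/Sham, Insr then turned to 0.56, Pik3r1 to -0.43 and Irs1 to -0.55. For TAC against Iso, Insr turned to 0.0069 and Irs1 to -0.15. At Pik3r1 the strongest region itself covers the start (101768217), and the region with the nearer centre lies wholly upstream of it. That upstream region had an equal peak depth of 12 in TAC and Veh/Sham. A gene's direction thus depends on which of its regions is read, and the cause of these moves was not tested. Many peak depths were under 20, which limits the precision of single ratios. No paired analysis was possible because each condition has 1 library.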

Other observations

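Some neighbouring regions at a single start had log2 ratios of mean signal with opposite signs. At Akt2, regions with a gap of 163 bp had log2 ratios for Iso against Veh/Sham of 0.87 upstream and -0.76 inside the gene. At Phlpp1, regions with a gap of 355 bp had 0.36 at the start and -1.76 at 713 bp, this one on a peak depth of 3 in Iso and 11 in Veh/Sham. At Pik3r1, regions with a gap of 21 bp had TAC against Veh/Sham log2 ratios of 0.89 and -0.43, the second on equal peak depths of 12. Within each pair the counting intervals of the peak ratios overlapped. They were 0.89 to 4.78 and 0.34 to 1.55 at Akt2, and 0.999 to 1.81 and 0.05 to 1.03 at Phlpp1. At Pik3r1 they were 1.11 to 3.53 and 0.41 to 2.43. These pairs were chosen after their values were seen, and the differences within them were not tested.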
